A study of Mus musculus with 6 samples.

Results

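Within YUMMER1.7 melanomas, 2793 of 27931 tumour-like cells carried the most RNA of Ptn, Apod, Itm2a, Nbl1, Penk and Gas1 and are described here as members. They make up 10.0% of the tumour-like cells and 4.79% of the 58351 barcodes in the series. A cell counted as tumour-like when it had at least 5000 UMIs (unique molecular identifiers, each standing for 1 captured RNA molecule) and at most 20% mitochondrial UMIs. It also had to have at most 1 UMI of Ptprc and Tyrobp together, which mark immune cells, no UMI of Cd3e or Pecam1, which mark T cells and endothelium, and at most 2 UMIs of Col1a1. Members are the top 10% of these cells, pooled over all libraries, by the UMIs of the 6 genes per 10000 UMIs of the cell. The lowest member scored 30.0382 and the highest cell outside scored 30.037. There were 360 members within 10% above the threshold and 449 other tumour-like cells within 10% below it, so membership is a range of a continuous score. The median score was 44.5 in members and 3.33 in the other tumour-like cells, and 1484 tumour-like cells had none of the 6 RNAs. These values chose the members and support nothing further.

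YUMMER1.7 is a mouse melanoma line derived by ultraviolet irradiation from a Braf-mutant parent line. Tumours grew from 600000 of these cells placed under the skin of male C57Bl/6 mice aged 6-8 weeks. The exercise group (libraries 5, 6 and 8) ran 12 m per minute, 45 minutes a day, on 14 days in a row, and the sedentary group (libraries 1, 2 and 3) did not run. Whole digested tumours were captured with 10x Genomics 3' chemistry with no sorting, so each library mixes grafted cells with stroma and immune cells of the host.

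The 6 genes have different jobs. Ptn encodes pleiotrophin, a secreted heparin-binding growth factor, and Apod encodes apolipoprotein D, a secreted lipocalin that carries small lipids. Penk encodes the precursor of the enkephalin opioid peptides. Nbl1 encodes a secreted antagonist of bone morphogenetic proteins, Itm2a a membrane protein of differentiating cartilage and muscle, and Gas1 a membrane-anchored co-receptor for hedgehog ligands first known from growth-arrested fibroblasts. Melanoma cells that lose pigment genes are known to take up mesenchymal or neural crest programmes, in which matrix and growth factor genes are prominent.

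Promoter windows are shown for Gas1, Apod and Ptn, the genes that most often led the score of a member. RefSeq sequences of GRCm38.p6 run from 250 bases before to 50 bases after the annotated start, and 5 of the 6 genes matched the table. Capitals mark matches, on either strand, to the CCAAT box (CCAAT) and the GC box (GGGCGG).
Gas1 promoter, chr13:60177486-60177785, minus strand: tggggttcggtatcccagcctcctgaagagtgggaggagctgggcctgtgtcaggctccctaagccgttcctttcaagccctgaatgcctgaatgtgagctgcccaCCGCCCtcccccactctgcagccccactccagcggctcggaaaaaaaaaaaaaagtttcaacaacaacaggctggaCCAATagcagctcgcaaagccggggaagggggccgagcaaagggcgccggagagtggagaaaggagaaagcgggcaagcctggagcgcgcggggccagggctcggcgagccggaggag
Apod promoter, chr16:31314759-31315058, minus strand: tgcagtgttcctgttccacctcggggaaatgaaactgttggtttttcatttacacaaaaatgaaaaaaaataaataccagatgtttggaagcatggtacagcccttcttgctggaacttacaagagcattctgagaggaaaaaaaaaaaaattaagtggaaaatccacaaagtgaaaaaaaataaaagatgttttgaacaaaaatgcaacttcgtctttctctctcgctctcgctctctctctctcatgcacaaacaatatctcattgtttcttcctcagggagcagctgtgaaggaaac
Ptn promoter, chr6:36810130-36810429, minus strand: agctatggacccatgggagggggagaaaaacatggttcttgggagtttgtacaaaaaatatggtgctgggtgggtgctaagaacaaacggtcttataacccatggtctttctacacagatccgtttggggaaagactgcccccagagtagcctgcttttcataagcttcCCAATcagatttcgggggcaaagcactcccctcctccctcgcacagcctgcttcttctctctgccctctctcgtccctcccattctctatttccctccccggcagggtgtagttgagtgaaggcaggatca
The Gas1 window held a CCAAT box 68 bases and a GC box 144 bases before the start, and the Ptn window held a CCAAT box 81 bases before it. The Apod window held neither, and its GC content was 37.3%, against a median of 52.7% over 32851 promoters. Nbl1 had 4 GC boxes in a window of 78.3% GC, and Itm2a had 1. A CCAAT box was present in 37.4% and a GC box in 35.7% of all promoters. A TATA box (TATAAA, in 13.6% of promoters), an AP-1 site (TGANTCA, 7.8%) and an E-box (CACGTG, 7.2%) were matched in none of the 5 windows. No motif searched was found in all 5 windows. The genes lie on chromosomes 4 (Penk and Nbl1), 6, 13, 16 and X.

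Members were shallower than the cells they are compared with, at a median of 10728 UMIs per cell against 19186 in the other tumour-like cells. The library medians spanned 9305 to 13167 UMIs in members and 16412 to 26444 in the others, with 4.46% to 6.23% and 3.72% to 4.91% mitochondrial UMIs. Summed UMIs of members ran from 1140077 in exercise 5 to 13132904 in sedentary 1, so exercise 5, with 87 members, gives the least precise values. Any library pair had 19 to 35 barcodes in common, of which 1 to 12 were tumour-like in both. The RNA of the pigment cell genes was almost absent from members, with 0 UMIs of Mlana, Dct and Tyrp1, 1 each of Tyr and Sox10 and 10 of Pmel. Mitf, their regulator, stood at 16.2 CPM (UMIs of a gene scaled to a common total, here over the summed UMIs of all members) against 9.49 CPM in the other tumour-like cells. The melanocyte label therefore rests on the origin of the grafted line and not on these markers.

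Each of the 6 genes was far above the other tumour-like cells in every library, as the choice of members requires. Levels here are CPM of the UMIs summed over the members, or over the other tumour-like cells, of a library. Ptn stood at 1261, 821 and 781 CPM in members of exercise 5, 6 and 8 and at 1098, 758 and 846 CPM in members of sedentary 1, 2 and 3. In the other tumour-like cells of the same libraries it stood at 53.9, 48.9 and 34.4 CPM in exercise and 80.9, 36.0 and 55.3 CPM in sedentary tumours. Both groups of libraries overlap for Ptn in members.

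Apod stood at 640, 1527 and 2203 CPM in exercise members and at 1278, 1670 and 2106 CPM in sedentary members. Its lowest value is that of exercise 5 and its highest that of exercise 8. Penk stood at 313, 657 and 724 CPM in exercise members and at 345, 380 and 424 CPM in sedentary members, so exercise 6 and 8 lay above and exercise 5 below every sedentary library. Itm2a stood at 318, 549 and 496 CPM in exercise members and at 732, 685 and 622 CPM in sedentary members, which do not overlap; outside the score, 4.09% of 10672 genes within members were lower in exercise with no overlap. No test is given for these levels because the score truncates them. Gas1 was the most widely shared gene, at 1076 to 1644 CPM in exercise members and 1167 to 1596 CPM in sedentary members, and it also stood at 245 to 429 CPM in the other tumour-like cells. Nbl1 was the lowest, at 143 to 175 CPM in exercise and 173 to 217 CPM in sedentary members.

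**Figure D1:**
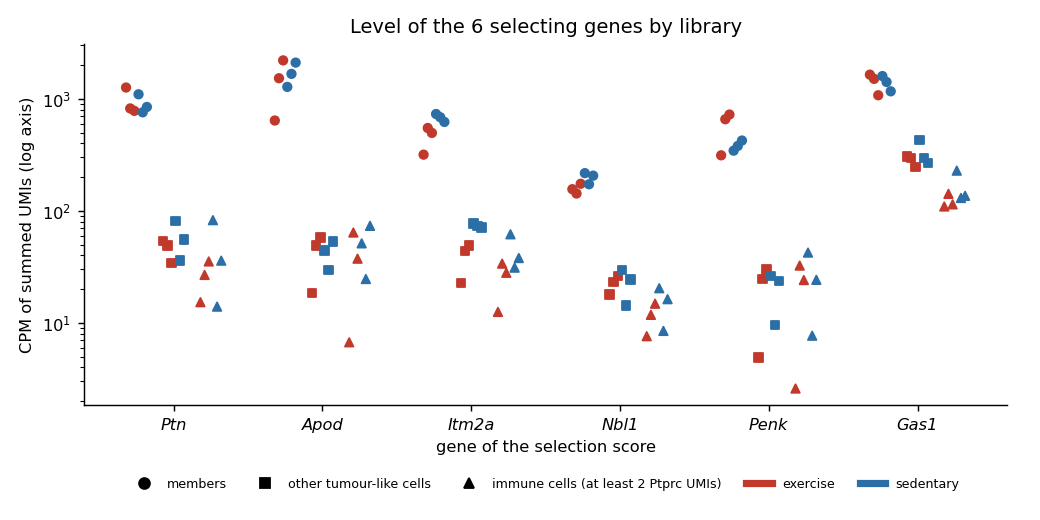
Level of the 6 genes that chose the members, in CPM of summed UMIs on a log axis, with 1 point per library (red exercise, blue sedentary). Circles are members, squares the other tumour-like cells and triangles immune cells with at least 2 Ptprc UMIs; members lie above both in every library, and Gas1 is the gene with the highest level outside them.

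Most members carried RNA of several of the 6 genes. The score sums these genes, so such counts are raised by the choice of members and do not test whether the genes occur together. After each cell was thinned to 5000 UMIs, 80.6% of members still had a UMI of at least 4 of the 6 genes, against 6.49% of the other tumour-like cells. All 6 were found in 430 members and only 1 in 13. A UMI of Ptn was found in 68.7% to 83.0% of thinned members per library, against 10.9% to 21.6% of the others, and a UMI of Gas1 in 94.7% to 98.5% against 56.6% to 72.5%. Unthinned, Ptn was found in 74.8% to 90.0% of members and 17.4% to 34.1% of the other tumour-like cells. Free RNA can add to such shares, and its part was not tested. Among 4486 immune cells, 3.84% to 11.6% had a UMI of Ptn and 16.3% to 28.4% one of Gas1. These cells were shallower, at a median of 7726.5 UMIs against 19186 in the other tumour-like cells. Over all libraries, Ptn, Apod and Penk stood at 33.4, 37.6 and 20.2 CPM in immune cells. In the other tumour-like cells they stood at 51.3, 44.1 and 21.0 CPM. In sedentary 1 these genes were higher in immune cells, and in exercise 5 lower. Itm2a (32.8 against 56.9 CPM), Nbl1 (12.6 against 23.1 CPM) and Gas1 (142 against 304 CPM) were lower in immune cells.

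Members were not uniform in which gene led. Gas1 contributed the most UMIs in 907 members, Apod in 831, Ptn in 660, Penk in 209 and Itm2a in 186, and Nbl1 led in 0. In exercise 5 Ptn led in 46.0% and Apod in 10.3% of members, whereas in exercise 8 Apod led in 42.4% and Ptn in 19.7%. Sedentary 1, 2 and 3 had Apod in the lead in 23.1%, 29.9% and 36.2% of members. The groups overlap for both genes.

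Apod-led members, set against the members led by other genes in the same libraries, carried more Col15a1 RNA, a basement membrane collagen, at 192 against 50.6 CPM. They also had more of the Wnt antagonist Nkd2 (76.3 against 20.6 CPM), the glucocorticoid-activating enzyme Hsd11b1 (79.1 against 20.7 CPM), the bone sialoprotein gene Ibsp (99.7 against 25.8 CPM) and the death receptor gene Tnfrsf21 (117 against 31.9 CPM). Cav1, the gene of the caveolar coat protein, was lower in them at 56.8 against 152 CPM, and the intermediate filament gene Vim at 2756 against 5032 CPM. All of these differences had 1 sign in all 6 libraries, although exercise 5 held only 9 Apod-led members.

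Ptn-led members had less of Lcn2, a lipocalin that binds siderophores, at 7.54 against 123 CPM, less of the protease inhibitor gene Slpi (19.6 against 81.2 CPM), less Mt1, a metallothionein (1873 against 5102 CPM), and less of the chemokine gene Ccl2 (104 against 322 CPM). They had more RNA of the transcription factor Gata2 (91.7 against 52.4 CPM) and of Csrp2, a cytoskeletal LIM protein (704 against 415 CPM). Gas1-led members had more Lgals3, which encodes a galectin (534 against 259 CPM), Hopx (208 against 92.6 CPM) and Cav1 (177 against 101 CPM), and less Ibsp (13.7 against 68.2 CPM), Nkd2 (12.7 against 51.2 CPM) and Col15a1 (36.9 against 120 CPM). Each of these sets is part of the cells that the others were set against. The leading gene was read from the same cells, so these are descriptions with no test.

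Members and the other tumour-like cells were then compared across all genes outside the score. Differences are medians over the 6 libraries of log2(CPM + 1), members minus others, and carry no test because the members were chosen by the expression of these cells. Of 6051 genes with at least 20 CPM in either set, 243 (4.02%) were at least 2-fold higher in members of all 6 libraries and 264 (4.36%) at least 2-fold lower. The median difference of all 6051 genes was 0.02. The 20 genes with the largest positive difference mostly encode secreted and matrix proteins. Of the 20 with the largest negative difference, 18 are cell division or histone genes, and Nefl and Hbegf are the others.

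Postn, which encodes the matricellular protein periostin, had the largest difference. It stood at 402, 349 and 291 CPM in exercise members and 377, 374 and 380 CPM in sedentary members. In the other tumour-like cells it stood at 5.69, 18.98 and 11.8 CPM in exercise and 29.95, 11.4 and 19.97 CPM in sedentary libraries. All libraries of members thus lay far above all libraries of the others, at a median log2 difference of 4.35 (range 3.61 to 5.91). Members averaged 362 ± 38.7 and the others 16.3 ± 8.53 CPM (SD, n = 6 each).

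Matrix genes followed the same direction. Mfap4, a microfibril protein gene, stood at 28.7 CPM in members and 0.699 CPM in the others (4.12), and Col12a1, a fibril-associated collagen gene, at 65.6 and 4.37 CPM (3.62). Col15a1 stood at 92.2 and 9.12 CPM (3.26), Col28a1 at 33.4 and 2.92 CPM (2.99), and Lum, which encodes the proteoglycan lumican, at 23.6 and 1.84 CPM (3.11). Sulf1, an enzyme that trims heparan sulphate, stood at 36.4 and 2.82 CPM (3.21). Of the 27 measured genes of a mesenchymal matrix list outside the score, 22 were higher in all 6 libraries, 11 of them at least 2-fold, and 1, Col6a3, was lower. Over all 9671 genes with at least 5 CPM, the minimum used for lists, 35.2% were higher and 30.9% lower in all 6 libraries. At least 2-fold so were 3.49% and 4.37%. These shares are the background for the counts of every list below. The median of the matrix list was 1.09, against 0.06 over those genes. Its summed level was 27019 to 31323 CPM in members and 13906 to 18175 CPM in the others. Mgp, an inhibitor of calcification, contributed most, at 8581 against 3109 CPM. Fn1, the fibronectin gene, was at 1792 CPM in members and 1755 CPM in the others (-0.02), and Vim at 4397 and 4851 CPM (-0.20). Not every mesenchymal gene was thus higher.

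Genes that modulate Wnt signals stood higher in members. Of 14 measured, 11 were higher in all 6 libraries and 0 lower, at a median of 1.24. Nkd2, an inhibitor of the pathway inside the cell, stood at 28.1, 35.7 and 36.4 CPM in exercise members and 50.3, 27.6 and 47.9 CPM in sedentary members, against 0.244 to 2.54 CPM in the others. Its relative Nkd1 (7.93 against 1.01 CPM), the secreted antagonist Frzb (17.9 against 1.93 CPM) and the amplifier Rspo3 (30.3 against 5.74 CPM) were also higher. So were the ligand Wnt5a (157 against 43.6 CPM) and the target Axin2 (23.9 against 7.98 CPM).

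Growth factor systems were also higher in members. Of 10 measured genes of the insulin-like growth factor system, 9 were higher and 1, Igfbp6, lower in all 6 libraries, at a median of 0.81. Igfbp3, a binding protein of the factor, stood at 36.0, 130 and 153 CPM in exercise members and 148, 114 and 243 CPM in sedentary members. In the other tumour-like cells it stood at 16.9 ± 11.8 CPM (SD, n = 6), a difference of 3.14. Igfbp7 (22.5 against 1.02 CPM), Igfbp4 (239 against 92.3 CPM) and the ligand Igf1 (16.0 against 1.71 CPM) were higher as well. Of 11 measured genes of a TGF-beta and YAP list, 8 were higher and 2 lower, at a median of 1.00. The ligands Tgfb2 (58.9 against 18.95 CPM) and Tgfb3 (33.1 against 10.7 CPM) and the receptors Tgfbr1 (52.5 against 15.6 CPM) and Tgfbr2 (111 against 43.0 CPM) stood higher, while Tgfb1 (28.2 against 34.6 CPM) and the target Tgfbi (239 against 300 CPM) stood lower. Ligands of the same family thus differed in direction.

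The pathways of the 6 genes themselves differed less. Over all genes of the list minimum, 35.2% were higher and 30.9% lower in all 6 libraries, and lists near these shares do not stand out. Of 10 measured binding partners and relatives of pleiotrophin, 5 were higher and 2 lower, at a median of 0.13. Nrp1, a co-receptor, stood at 54.9 against 15.9 CPM, and the nucleolar protein gene Ncl, whose product also binds pleiotrophin, at 461 against 819 CPM. Of 12 genes of the bone morphogenetic protein list, 6 were higher and 1 lower, with a median of 0.40. The target Id3 stood at 841 against 326 CPM and the antagonist Fst at 40.03 against 76.7 CPM. Of 5 measured hedgehog genes 3 were higher, with the signal transducer Smo at 44.1 against 24.2 CPM. The target Ptch1 stood at 6.29 against 7.12 CPM and was not lower in every library. Of the 5 measured genes of opioid peptide processing, 2 were higher and 1 lower. Mme, the neprilysin gene, whose product cleaves enkephalins, stood at 69.3, 71.4 and 36.8 CPM in exercise members and 37.9, 42.6 and 36.2 CPM in sedentary members, against 9.56 ± 1.76 CPM in the others (SD, n = 6; 2.25). Among lipid carriers, Clu (clusterin) stood at 288 against 34.2 CPM, the retinoid-binding Crabp1 at 5485 against 2549 CPM and the lipid exporter Abca1 at 70.1 against 22.1 CPM.

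**Figure D2:**
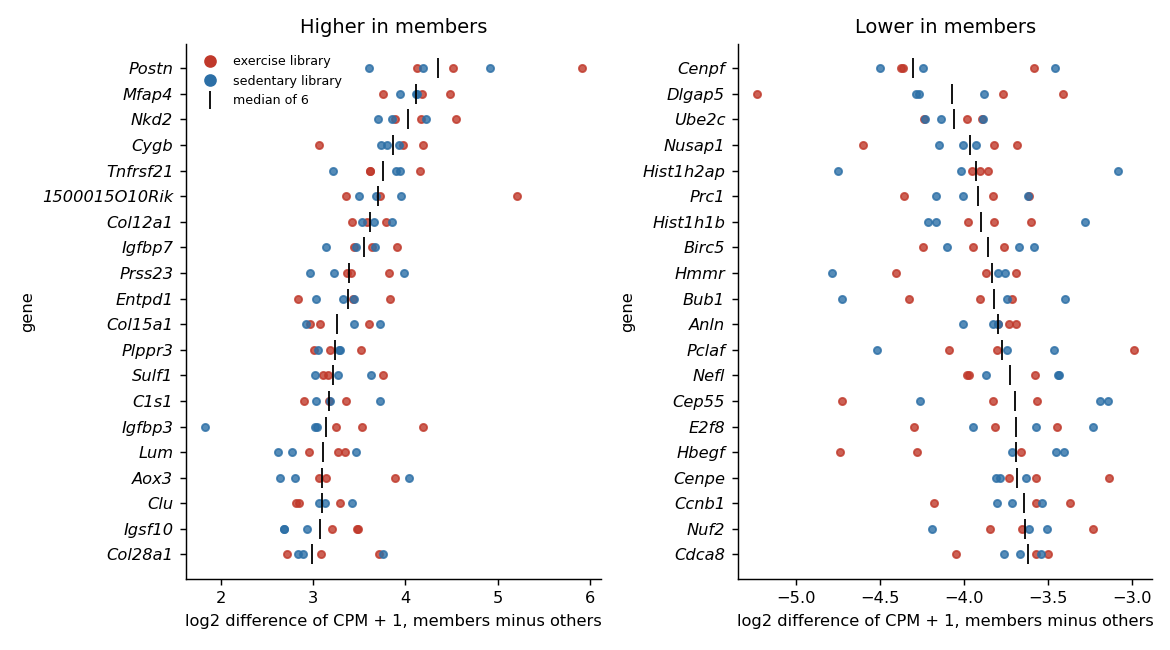
Difference between members and the other tumour-like cells in log2(CPM + 1) for the 20 genes with the largest positive and the 20 with the largest negative median, 1 point per library (red exercise, blue sedentary) and a black tick at the median of the 6. Postn leads the left panel at 4.35 and Cenpf the right panel at -4.30; every library of every gene drawn keeps the sign of its median.

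Genes of cell division stood lower in members. All 20 genes of a G2/M list were lower in members of all 6 libraries, 19 of them at least 2-fold, with a median of -3.44. Their summed level was 201 to 321 CPM in members and 1682 to 2369 CPM in the other tumour-like cells. Cenpf, a kinetochore protein gene, stood at 8.77, 21.8 and 8.18 CPM in exercise members and 20.03, 11.2 and 7.64 CPM in sedentary members. In the others it stood at 200, 272 and 190 CPM in exercise and 230, 230 and 195 CPM in sedentary libraries, so the sets do not overlap. Mki67, the proliferation antigen Ki-67, stood at 11.6 ± 2.85 CPM in members and 134 ± 26.0 CPM in the others (SD, n = 6 each). Ube2c, which helps to degrade cyclins, stood at 13.9 against 246 CPM, and Top2a, the least reduced of the list, at 133 against 376 CPM. Of 20 S phase genes 19 were lower, with a median of -1.79, and E2f1 was the exception at 17.6 against 23.05 CPM.

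The same signs were found at matched depth. With every cell thinned to 5000 UMIs, a mean of 1.02 to 1.54 UMIs per cell came from the G2/M list in members, against 6.07 to 8.92 in the other tumour-like cells. At least 2 such UMIs were found in 24.0% to 31.8% of thinned members and 38.7% to 53.3% of the others, and in 46.0% to 65.0% and 62.8% to 79.1% without thinning. With members scored and chosen again from the thinned cells, the 20 genes named as higher differed by 2.35 to 3.84, and the 20 named as lower by -3.60 to -2.98. Unthinned cells with 3 or more cell cycle UMIs per 10000 were taken as cycling. Per library they made up 53.2% to 62.7% of members and 63.4% to 78.4% of the others. These cycling cells were then left out and the top 10% of the remaining tumour-like cells taken again, which gave 844 cells. Set against the rest of the remaining cells, they had 87 genes at least 2-fold higher and 42 lower in all libraries. The 20 higher genes then stood at 2.07 to 4.08, while 8 of the 20 lower genes, Cenpf, Dlgap5, Hist1h1b, Hmmr, Anln, Pclaf, Cenpe and Cdca8, changed sign. Nefl stood at -2.78 and Hbegf at -2.71 among these non-cycling cells.

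Genes that hold cells out of the cycle were mixed. Of 19 measured genes of a cell cycle exit and p53 list, 9 were higher and 4 lower in all 6 libraries, with a median of 0.23. The shares over all genes of the list minimum were 35.2% and 30.9%. Cdkn1b, which encodes the inhibitor p27, stood at 79.8, 106 and 94.8 CPM in exercise members and 105, 99.5 and 97.5 CPM in sedentary members, against 50.7 ± 7.30 CPM in the others (SD, n = 6; 0.94). Cdkn2c stood at 133 against 57.5 CPM and the stress-regulated Txnip at 98.2 against 27.1 CPM. The p53 targets Cdkn1a (272 against 445 CPM), Mdm2 (52.7 against 102 CPM) and Ccng1 (72.3 against 127 CPM) stood lower. Trp53 itself was lower too, at 83.0 against 125 CPM. Sesn1 (14.1 against 7.79 CPM), Trp53inp1 (29.5 against 16.8 CPM) and Phlda3 (234 against 210 CPM), also p53 targets, stood higher in all 6 libraries. The p53 targets thus moved both ways. The cyclin gene Ccnd1 stood at 258 ± 38.6 against 805 ± 111 CPM (-1.60).

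The output of the MAPK cascade, which mutant Braf drives in this line, held genes of both directions. Of 21 measured genes 10 were lower, 7 of them at least 2-fold, and 7 higher, 1 of them at least 2-fold, in all 6 libraries, with a median of -0.35. Over all genes of the list minimum, 30.9% were lower and 35.2% higher. The growth factor gene Hbegf stood at 2.63, 3.31 and 8.18 CPM in exercise members and 4.95, 6.98 and 9.41 CPM in sedentary members, against 95.3 ± 20.2 CPM in the others. Areg, another ligand of the EGF receptor, stood at 7.45 against 61.8 CPM, the AP-1 subunit gene Fosl1 at 29.1 against 154 CPM and the phosphatase gene Dusp5 at 6.78 against 38.5 CPM. The feedback inhibitor genes Spry1 (52.1 against 13.0 CPM), Spry2 (28.4 against 14.9 CPM) and Dusp6 (94.0 against 59.3 CPM) were higher.

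Interferon-stimulated genes were higher throughout. All 21 listed genes were higher in members of all 6 libraries, 2 of them at least 2-fold, at a median of 0.91. Isg15, a ubiquitin-like modifier gene, stood at 239, 338 and 384 CPM in exercise members and 259, 594 and 240 CPM in sedentary members, against 152 ± 40.5 CPM in the others (SD, n = 6). Ifit3 stood at 507 against 147 CPM and the T cell attractants Cxcl9 and Cxcl10 at 143 against 36.9 and 448 against 142 CPM. The summed list was highest in sedentary 2 members, at 10491 CPM, and spanned 4622 to 6159 CPM in exercise members. The genes of MHC class I presentation were higher in 14 of 19 cases, with a median of 0.55. H2-K1 stood at 2104 against 1391 CPM and B2m at 1980 against 1239 CPM.

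Amino acid stress, metabolism and chaperone genes mostly stood lower. Among all genes of the list minimum, 30.9% were lower and 35.2% higher in all 6 libraries. Of 14 genes of the integrated stress response 10 were lower and 1, Nupr1, higher, with a median of -0.94. Their summed level was not lower, at 1535 to 1902 CPM in members and 1262 to 1821 CPM in the others. The serine synthesis genes Psat1 (21.2 against 172 CPM) and Phgdh (26.3 against 123 CPM), the asparagine synthetase gene Asns (15.9 against 107 CPM) and the folate enzyme gene Mthfd2 (10.7 against 78.5 CPM) were at least 2-fold lower. Of 19 hypoxia genes 11 were lower and 4 higher, with a median of -0.42; Slc2a1, a glucose transporter gene, stood at 39.3 against 89.3 CPM and Vegfa at 85.0 against 48.8 CPM. Of 15 glycolysis genes 9 were lower and 3 higher (-0.40), of 23 respiratory chain genes 15 were lower and 2 higher (-0.20), and of 22 ribosomal protein genes 15 were lower and 1 higher (-0.12). Of 11 heat shock genes 8 were lower and 1 higher (-0.44). Of 16 immediate early genes, which tissue digestion can raise, 4 were lower and 3 higher (0.19). None of these lists moved as far as the division genes.

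Neural crest genes that are known from melanoma moved both ways. Of 15 measured, 9 were higher and 3 lower in all 6 libraries, with a median of 0.30. Among all genes of the list minimum, 35.2% were higher and 30.9% lower. The transcription factor genes Sox2 (86.5 against 38.8 CPM), Tfap2b (160 against 78.3 CPM) and Snai2 (14.5 against 4.14 CPM) were higher, while Nes (17.9 against 55.2 CPM), Cdh2 (25.2 against 53.6 CPM) and the growth cone gene Gap43 (2.13 against 12.4 CPM) were lower. Nefl, the neurofilament light chain gene, stood at 9.99 against 139 CPM.

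**Figure D3:**
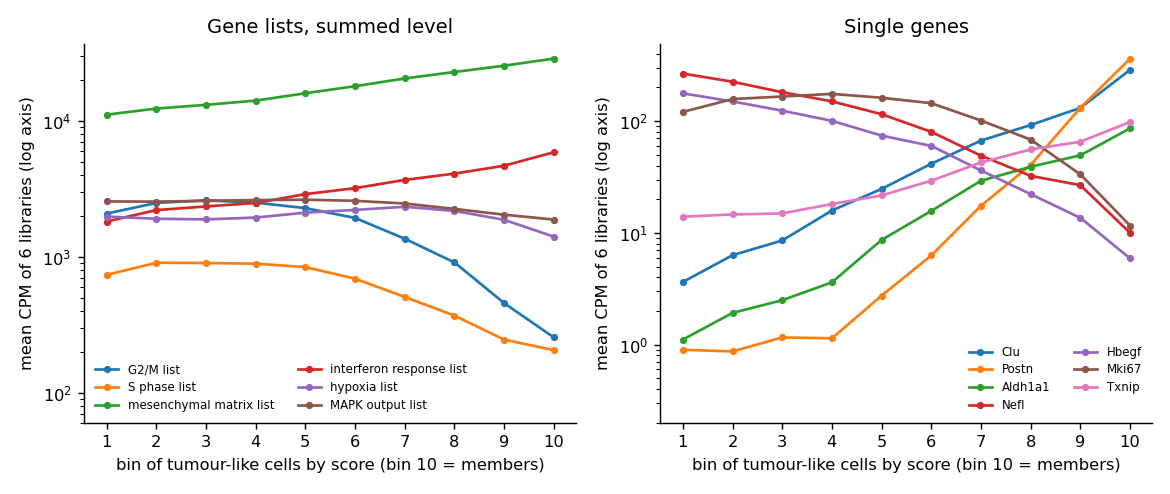
Mean level over the 6 libraries in 10 bins of the tumour-like cells ordered by score, with members as bin 10; both vertical axes are CPM on a log scale, for summed gene lists (left) and single genes (right). Matrix and interferon lists, Clu and Postn increase towards members, Nefl and Hbegf decrease, and the G2/M list is highest in bin 3 and lowest in members.

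Lists and genes chosen after their values were seen were also followed along the score. The tumour-like cells were ordered in 10 bins of equal size, bin 10 being the members. The summed mesenchymal matrix list was at 11151 CPM in bin 1, 16048 CPM in bin 5, 25603 CPM in bin 9 and 28890 CPM in members. The interferon list passed through 1822, 2900, 4695 and 5896 CPM in the same bins. Clu stood at 3.64, 24.7, 131 and 288 CPM and Nefl at 266, 115, 26.7 and 9.99 CPM. The G2/M list was highest, at 2609 CPM, in bin 3, and stood at 457 CPM in bin 9 and 255 CPM in members. Postn was under 3 CPM in each of the bins 1 to 5 and stood at 132 CPM in bin 9. Median UMIs per cell stood at 22107.5 in bin 1, were highest in bin 2 at 26613, and decreased from there to 12631 in bin 9 and 10728 in members; their part in these gradients was not tested beyond the thinned values above.

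Members overlapped unevenly with other states of the tumour-like cells. The top 10% of tumour-like cells by the summed RNA of Aldh1a1, Scara5 and Ly6c1 held 18.4% of members and 9.07% of the other tumour-like cells, and the top 10% for the bone matrix genes Ibsp and Dmp1 17.3% and 9.19%. The top 10% for Hbegf, Nefl and Tnfrsf12a held 2 members, or 0.0716%, and 11.1% of the others. The top 10% for the G2/M list held 4 members, or 0.143%, and 11.1% of the others. The top 10% for the hypoxia list held 4.05% of members and 10.7% of the others, and that for the interferon list 20.2% and 8.87%. In sedentary 2 the top 10% for interferon held 58.4% of members, against 10.7% to 24.0% in the other 5 libraries. Aldh1a1, a retinaldehyde dehydrogenase gene, stood at 64.0, 105 and 110 CPM in exercise members and 66.2, 64.2 and 108 CPM in sedentary members, against 13.2 ± 5.60 CPM in the others.

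Fibroblast markers were higher in members, so the members were set beside host cells. Of 8 measured markers on the fibroblast list, 7 were higher in all 6 libraries, at a median of 1.66. The summed list stood at 1832 to 2615 CPM in members and 938 to 1137 CPM in the other tumour-like cells. Dcn, the decorin gene, stood at 887, 660 and 598 CPM in exercise members and 820, 1286 and 620 CPM in sedentary members, against 287 ± 107 CPM in the others (SD, n = 6). Pdgfra and Pdgfrb, platelet-derived growth factor receptor genes of mesenchymal cells, stood at 304 against 129 CPM and 135 against 35.5 CPM. Col1a1 stood at 16.98 CPM over all members, 436 of which had a UMI of it, against 2.18 CPM in the others, and the selection allows at most 2 UMIs of it per cell. In 68 Col1a1-rich cells, with at least 20 UMIs of it, its level was 11616 CPM.

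The genes of this check against host cells were chosen after their values were seen. Eif2s3y, a Y-linked translation factor gene, had 12 UMIs in members (0.365 CPM) and stood at 0.0797 CPM in the other tumour-like cells. It stood at 29.7 CPM in cells with at least 2 Ptprc UMIs and 27.3 CPM in Col1a1-rich cells. The Col1a1-rich level rests on 23 UMIs. It was 0 in sedentary 1 and sedentary 3, which held 6 and 4 Col1a1-rich cells. Eif2s3y therefore cannot set members apart from Col1a1-rich cells in those libraries. Thy1, a surface protein gene of fibroblasts and T cells, stood at 0.608 CPM in members, 0.447 CPM in the others, 47.0 CPM in the immune cells and 220 CPM in Col1a1-rich cells. Cdkn2b stood at 0.668, 0.891, 0.492 and 30.9 CPM in the same order. It was low in immune cells too. Other Y-linked genes did not set members apart from host cells in this way, with Ddx3y at 72.5, 54.7, 55.9 and 89.1 CPM, Kdm5d at 13.6, 10.4, 12.5 and 13.1 CPM and Uty at 13.7, 9.54, 13.6 and 13.1 CPM. Members shared low Eif2s3y and Thy1 with the other tumour-like cells. Only 29 members had a UMI of Eif2s3y or Thy1. Without all such cells, 245 genes were at least 2-fold higher and 261 lower in members of all 6 libraries.

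Markers of other cell types were low in members, but the selection on Ptprc, Tyrobp, Cd3e and Pecam1 removes immune and endothelial cells from both sets. Low sums of their markers therefore follow from the choice of cells. The macrophage list summed to 30.4 to 49.997 CPM in members and 19.9 to 29.7 CPM in the others, without overlap of the libraries. T and NK markers summed to 3.37 to 9.32 and 2.86 to 5.82 CPM, and endothelial markers to 6.14 to 14.7 and 12.7 to 46.3 CPM. Pericyte and smooth muscle markers summed to 32.5 to 64.9 and 50.3 to 68.9 CPM, and Schwann cell markers to 3.84 to 19.3 and 2.46 to 9.83 CPM. Pecam1 was at 0 in both sets because the selection requires it. Their part in the differences was not tested.

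**Figure D4:**
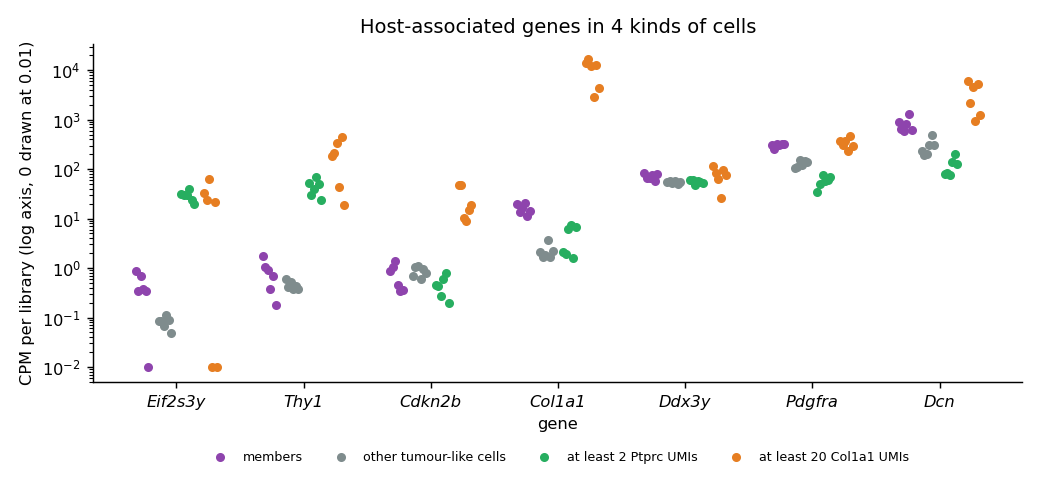
CPM per library, on a log axis with 0 drawn at 0.01, of genes compared in members (purple), other tumour-like cells (grey), immune cells with at least 2 Ptprc UMIs (green) and cells with at least 20 Col1a1 UMIs (orange). Eif2s3y and Thy1 are under 2 CPM in every library of members, against over 10 CPM in immune cells, while Pdgfra and Dcn are higher in members than in the other tumour-like cells.

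The comparison that the design implies is running against no running. Members made up 2.89%, 9.57% and 7.43% of tumour-like cells in exercise 5, 6 and 8, and 22.1%, 6.80% and 9.19% in sedentary 1, 2 and 3. Sedentary 1 stood apart, with 972 members of 4396 tumour-like cells (exact 95% binomial interval 20.9% to 23.4%), and exercise 5 was lowest, with 87 of 3015 (2.32% to 3.55%). These intervals cover counting error only. The other 4 libraries lay between 6.80% and 9.57% and the groups overlapped. The means were 6.63 ± 3.41% in exercise and 12.7 ± 8.24% in sedentary libraries (SD, n = 3 each). Their difference was -6.07 percentage points, with an exact two-sided permutation p = 0.5. The smallest p that 3 libraries against 3 allow is 0.1. Without sedentary 1 the difference was -1.36 points (exact permutation p = 0.9). The difference was thus within the spread between libraries. Nothing in the labels ties a library to a batch or states that each came from its own mouse, so p-values measure the spread between these libraries.

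**Figure D5:**
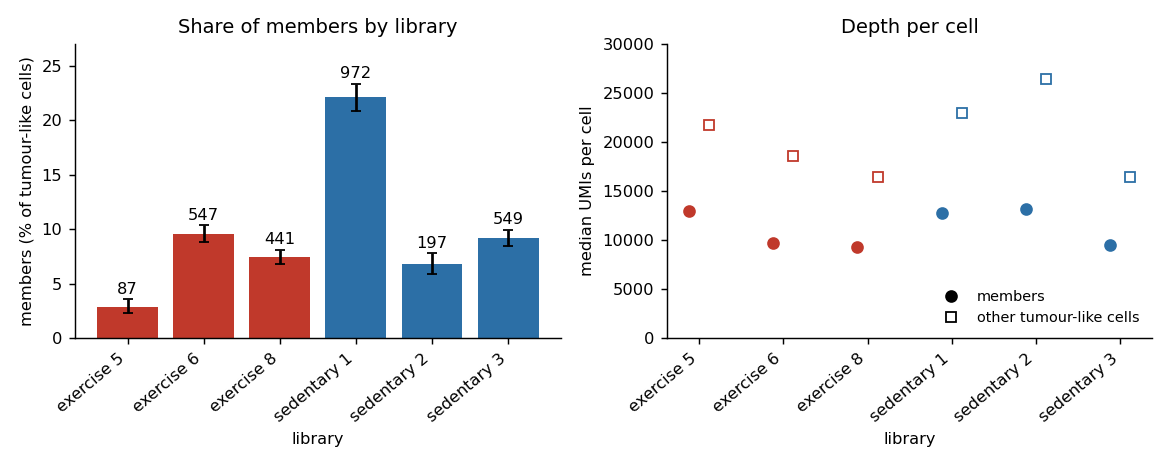
Left: members as a percentage of the tumour-like cells of each library, with exact 95% binomial intervals and the number of members above each bar (red exercise, blue sedentary). Right: median UMIs per cell of members (filled circles) and other tumour-like cells (open squares); sedentary 1 has the highest share at 22.1%, and members are the shallower set in every library.

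Summed over all tumour-like cells, where membership does not truncate the values, none of the 6 genes passed edgeR's quasi-likelihood test between the groups (each adjusted p = 0.999). Itm2a stood at 27.5, 69.7 and 67.5 CPM in exercise and 161, 94.2 and 99.6 CPM in sedentary tumours, so every exercise library lay below every sedentary one. Its log2 fold change was -1.10 (SE 0.35). The groups also did not overlap, in that direction, for 4.58% of all 14360 genes tested. Ptn stood at 73.3, 88.2 and 64.9 CPM in exercise and 211, 61.1 and 96.4 CPM in sedentary tumours (-0.69, SE 0.38), with sedentary 1 alone far above the rest. Apod (-0.58, SE 0.55), Nbl1 (-0.38, SE 0.33), Gas1 (-0.34, SE 0.21) and Penk (-0.09, SE 0.62) overlapped between the groups. Penk turned to 0.38 without exercise 5 and to 0.29 without sedentary 1.

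Within members, 0 of 10672 genes outside the score passed edgeR's test at an adjusted p under 0.05 in either direction (percent called 0), and DESeq2 called 3 higher and 5 lower. At an unadjusted p under 0.05 there were 209 genes higher and 163 lower in exercise. The groups did not overlap for 537 genes higher in exercise (5.03%) and 437 lower (4.09%). In the other tumour-like cells edgeR also called 0 of 14158 genes (231 higher and 361 lower unadjusted), and DESeq2 11 higher and 18 lower.

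Sfrp2, a secreted Wnt antagonist gene, had the smallest p within members. It stood at 0, 0.174 and 1.36 CPM in exercise members and 10.3, 11.2 and 7.28 CPM in sedentary members, with no overlap. Its log2 fold change was -3.90 (SE 0.52, edgeR adjusted p = 0.203). With each library left out in turn it lay between -5.85, without exercise 8, and -3.14, without exercise 6 (edgeR adjusted p 0.0743 to 0.999), and exercise values this low rest on few UMIs. In the other tumour-like cells it stood at 0.186, 0.131 and 0.242 CPM in exercise and 1.54, 1.66 and 1.17 CPM in sedentary tumours (-2.96, SE 0.28, edgeR adjusted p = 0.114). The direction was thus shared by both sets of cells, at a higher level in sedentary members. Mmp3, the stromelysin gene, stood at 134, 171 and 218 CPM in exercise members and 277, 369 and 294 CPM in sedentary members (-0.84, SE 0.18, edgeR adjusted p = 0.837). Trp53i11 (37.1 ± 8.77 against 74.5 ± 12.6 CPM), Ephb2, a receptor for ephrins (0.636 ± 0.267 against 2.61 ± 0.414 CPM), and Tnfrsf9, a costimulatory receptor gene (12.9 ± 6.14 against 28.2 ± 2.37 CPM), were the other genes named as lower in exercise.

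On the other side, Klhl4 stood at 31.6, 40.1 and 32.5 CPM in exercise members and 17.8, 9.07 and 13.0 CPM in sedentary members (1.31, SE 0.21, edgeR adjusted p = 0.463). Gpc4, a heparan sulphate proteoglycan gene, stood at 125, 109 and 110 CPM in exercise members and 73.1, 80.6 and 77.2 CPM in sedentary members (0.56, SE 0.11, edgeR adjusted p = 0.766). Ptgs1, which encodes cyclooxygenase-1, stood at 23.2 ± 4.85 against 11.6 ± 2.12 CPM, the RNA editing enzyme gene Adarb1 at 6.54 ± 0.460 against 2.01 ± 0.850 CPM and 9330159F19Rik at 10.7 ± 4.01 against 3.03 ± 1.82 CPM (SD, n = 3 each). These genes were named because their unadjusted p was smallest among genes of the same direction, which favours groups that do not overlap. None passed edgeR's test after the filter on low counts, while DESeq2 put Sfrp2, Mmp3, Trp53i11, Tnfrsf9, Klhl4 and 9330159F19Rik under an adjusted p of 0.05.

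No gene of any list passed edgeR's test within members, while Sfrp2, a gene of the Wnt modulator list, was among those called by DESeq2. Of 19 tested hypoxia genes 18 had lower estimates in exercise, at a median log2 fold change of -0.19, and of 22 ribosomal protein genes 21 had lower estimates (-0.09). All 5 tested bone matrix genes had higher estimates (0.46) and 15 of 19 G2/M genes did (0.20), while the Wnt modulators split 6 and 8 (-0.10). The mesenchymal matrix genes split 17 and 11 (0.05). Over all genes in the fit the median was 0.00, with 5374 estimates higher and 5304 lower. In the other tumour-like cells, 20 of 20 hypoxia genes (-0.47) and 19 of 22 ribosomal protein genes (-0.06) had lower estimates. Estimates there were higher for 5 of 7 bone matrix genes (0.35) and 16 of 20 G2/M genes (0.05). The Wnt modulators split 7 and 9 (-0.15) and the mesenchymal matrix genes 13 and 15 (-0.01). The directions of the first lists were thus not particular to members.

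The exercise difference was also compared between members and the other tumour-like cells of the same libraries. Of 14078 genes 0 passed edgeR's test of that interaction and DESeq2 called 0, with 295 higher and 213 lower at an unadjusted p under 0.05. Hbb-bs, a haemoglobin gene of red cells, came closest. It stood at 0, 0 and 0.227 CPM in exercise members and 1.68, 0.349 and 1.07 CPM in sedentary members, against 3.50, 1.86 and 5.18 CPM and 1.64, 0.176 and 0.711 CPM in the others (edgeR adjusted p of the interaction = 0.0588). Exercise members held 1 UMI of it, so no fold is given. Pcdh17 (0.61, SE 0.12) and Robo1 (2.34, SE 0.53) followed, each with an edgeR adjusted p = 1. Robo1, a guidance receptor gene, stood at 20.2 CPM in exercise 5 members and at 1.92 CPM or less in members of the other libraries.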

How the data were processed

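Single-cell RNA was measured in 6 libraries of digested tumours, 3 exercise and 3 sedentary. The authors deposited raw UMI counts per gene and barcode, 97426009 to 131778565 UMIs per library. Per the submitters' processing notes reads went through Cell Ranger 6.1.2 on mm10 (the file headers name software version 3.1.0). Barcodes were already called as cells, and free RNA was not corrected for. Members and gene lists were chosen with earlier results of these data known. Counts were summed per library over members and over the other tumour-like cells. Exercise and sedentary sums were compared with edgeR 4.0.16 (quasi-likelihood test, TMM, filterByExpr, Benjamini-Hochberg adjustment over all genes tested), tested on simulated data, with DESeq2 1.42.0 as an alternative. Shares were compared by exact permutation. Members against others is a description on log2(CPM + 1) (python 3.11.15). Scrublet within scanpy 1.11.5 called 96 tumour-like cells doublets, which were kept in the results and left out in an alternative.

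Genes were named by rule: the 6 genes of the score; the 20 with the largest median difference in each direction among those with 1 sign in all 6 libraries and at least 20 CPM; the genes with the smallest unadjusted p where none passed, 5 per direction within members and 3 for the interaction; up to 4 per list with the largest difference; and the genes of the selection and label checks. Further list genes, the genes of the leading-gene profiles (at least 50 CPM), those drawn along the score and the host genes were chosen after their values were seen. In all 43 lists were used. Some results on single genes are not reported here.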

Additional observations from a re-analysis of the deposited data

How the results depend on the processing

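No paired analysis was possible because the exercise libraries (5, 6 and 8) and the sedentary libraries (1, 2 and 3) share no replicate number. The difference in the share of members kept its negative sign in every setting tried, from -3.14 points (top 5%) to -9.28 points (top 20%), and lay between -9.02 and -1.36 points with each library left out in turn. Genes at least 2-fold higher in members numbered 148 when every cell was thinned to 5000 UMIs before scoring and summing, which also chooses the members again (the cause was not tested). At a minimum of 5 CPM, where more genes are tested, 423 were lower. With each library left out the counts were 248 to 263 higher and 269 to 279 lower. Without cycling cells, a setting added for these counts after seeing the data, which removes cells by the genes concerned and takes the top 10% of the rest again, 87 were higher and 42 lower. In that setting Cenpf (0.48), Dlgap5 (0.11), Hist1h1b (0.23), Hmmr (0.0076), Anln (0.036), Pclaf (0.13), Cenpe (0.26) and Cdca8 (0.21) turned positive.

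For exercise against sedentary, DESeq2 called 3 genes higher and 5 lower in members, 11 and 18 in the other tumour-like cells and 11 and 21 in all tumour-like cells. edgeR with no filter on low counts called 22 and 8, 1 and 1, and 1 and 1 in the same order, and 35 and 10 for the interaction; the cause was not tested. The interaction gave 1 lower gene with the score taken after thinning to 5000 UMIs and 1 with the top 10% taken within each library, and 0 to 1 higher and 0 to 2 lower with each library left out. Counts in members, in the others and in all tumour-like cells stayed at 0 with each library left out. Penk over all tumour-like cells ranged from -0.42 to 0.38 with each library left out, at 0.38 without exercise 5 and 0.29 without sedentary 1. Leaving out cells with an Eif2s3y or Thy1 UMI, also chosen after seeing the data, gave a share difference of -6.15 points. Exercise 5, with 1140077 UMIs over its members, sets the lowest precision.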
